A study of Mus musculus with 6 samples.

Results

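Antiviral restriction factors are host proteins that block steps of viral replication inside a cell, and 10 genes for such effectors outside the Oas, Ifit and immunity-related GTPase families are described here in mouse cortex. The 10 genes were chosen by name (Mx1, Mx2, Rsad2, Samhd1, Apobec3, Trim30a, Zc3hav1, Slfn2, Slfn5 and Slfn8), and all 10 were found among the 23366 genes of the expression table. RNA of frontal cortex was sequenced from 3 microglia-depleted mice at d10 post depletion, called A4 to A6. The same was done for 3 control littermates, called A1 to A3, and each mouse gave 1 library. Depleted mice carried a CX3CR1-CreERT2 allele and an iDTR allele, by which Cre recombination makes cells sensitive to diphtheria toxin. Control mice carried the same Cre allele and no iDTR. Both genotypes received tamoxifen, which activates this Cre, and depletion was induced with diphtheria toxin. Whether the control mice also received the toxin is not stated, so its own effect and that of the depletion cannot be told apart. The strain is C57BL/6, the mice are described as adult and matched for age and sex, and their ages are not given. Cre under the Cx3cr1 promoter is active in microglia and also in other Cx3cr1-expressing myeloid cells. The depleted mice held microglia markers at this time, so their cortex was not free of microglia.

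Cells sense type I interferon through a receptor made of IFNAR1 and IFNAR2, which signals to a complex, called ISGF3, that holds STAT2 and IRF9. ISGF3 binds a DNA element in the promoters of many interferon-stimulated genes, restriction factors among them. Neurons, astrocytes and microglia can all mount this response, so RNA from unsorted cortical tissue does not say which cells carry a transcript. Each factor acts at its own step: the Mx GTPases on incoming nucleocapsids, viperin (Rsad2) by making a chain-terminating nucleotide, SAMHD1 and APOBEC3 during reverse transcription, ZAP (Zc3hav1) on CpG-rich RNA, and Schlafen proteins on tRNA and translation.

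The labels were set against sex-linked genes and cell type markers before the comparison. Xist, the RNA of the inactive X chromosome, was at 46.7, 45.2 and 4.74 FPKM in A1 to A3 and at 30.9, 40.1 and 38.1 FPKM in A4 to A6. FPKM is the number of fragments per kilobase of transcript, scaled to library size, so levels of different genes can be compared. The summed FPKM of the Y-linked genes Ddx3y, Eif2s3y, Kdm5d and Uty was 5.56 in A4, 0.16 in A1 and A5, and 0 in A2, A3 and A6. A3 was therefore low in Xist with no Y-linked RNA, and A4 held Xist together with RNA of all 4 Y-linked genes, which sets both apart from the other 4 mice. Whether either library holds mixed or mislabelled RNA could not be settled from the table, and most of the differences described here are largest in A4. A4 was also the mouse with the highest level of 9 of the 10 genes, so the differences of these genes are given with and without A4, and their counts also without A3 and A4. Cortical genes were present in every library: the summed FPKM of Cux2, Tbr1, Rorb and Fezf2 lay between 42.7 in A4 and 55.6 in A6.

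The libraries also differed in depth. From the steps between low FPKM values, the depth was estimated at 14.6, 20.5 and 18.3 M fragments in A1 to A3 and at 13.7, 7.1 and 11.2 M in A4 to A6. For A5 a depth of 10.7 M matched the steps nearly as well. With these depths and the longest coding transcript of each gene, Mx1 rested on about 13, 1 and 5 fragments in A1 to A3, and Rsad2 on about 18, 14 and 25. Values of such genes in control mice are therefore imprecise, whereas Samhd1 had about 210, 292 and 282 fragments in the same mice. The ratio of a group mean to a control mean near 0 is sensitive to this.

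In the control mice the 10 genes were low, between 0.02 and 3.93 FPKM. Samhd1 was the most abundant at 3.74 ± 0.163 FPKM (SD, n = 3), and its range did not touch that of the next gene. Slfn5 at 1.49 ± 0.214 FPKM and Slfn2 at 1.17 ± 0.118 FPKM (SD, n = 3) followed, with overlapping ranges. Apobec3, Zc3hav1 and Trim30a lay together between 0.52 and 0.92 FPKM, under every value of Slfn2. Slfn8, Mx2, Rsad2 and Mx1 came last, and no neighbours among these 4 were apart. In A4 the order was different: Rsad2 came first at 10.2 FPKM, then Mx2 at 9.80, then Trim30a at 6.67 and Mx1 at 6.66, ahead of Samhd1 at 5.54. In A5 and A6 Samhd1 remained the highest of the 10, at 4.05 and 6.04 FPKM.

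All 10 genes were higher on average in depleted mice, and 0 of the 10 passed the test. The groups were compared with limma on log2(FPKM + 1) over 14385 genes (those whose mean reached 0.5 FPKM), and 4 of these genes, or 0.0278%, had an adjusted p under 0.1. At an unadjusted p under 0.05, 8 of the 10 genes were higher, against 4.79% of all genes tested. That count was 3 without A1, 2 without A2, 2 without A3, 4 without A4, 6 without A5 and 7 without A6, while the share of all genes tested was 2.5%, 2.6%, 3.06%, 5.99%, 6.92% and 5.95%. Without A3 and A4 it was 3 of 9 tested, against 4.58%. The lowest depleted mouse was above the highest control mouse in 8 of the 10 genes, against 8.21% of all genes tested. The median difference of the 10 genes was 0.68 on the log2(FPKM + 1) scale, which understates the change of low genes, and the median over all genes tested was -0.0085. Mx1, Mx2, Rsad2 and Slfn8 had control means under the minimum and entered the test only through their level in depleted mice, so these counts and medians lend no support. Without A4 the median was 0.35, 9 genes were higher on average, and A5 and A6 were above every control mouse in 8 genes, against 14.5% of all genes tested. Without A3 and A4 the median was 0.34, and A5 and A6 were above A1 and A2 in 8 genes, against 19.6% of all genes tested. These counts and medians include Mx1, Mx2, Rsad2 and Slfn8 as well, so they lend no support either. Of the other members, Samhd1, Trim30a, Zc3hav1 and Slfn2 had groups apart with all mice and in both of these settings. Apobec3 and Slfn5 did not. In whole tissue, more cells that hold a transcript and more transcript per cell cannot be told apart.

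**Figure D1:**
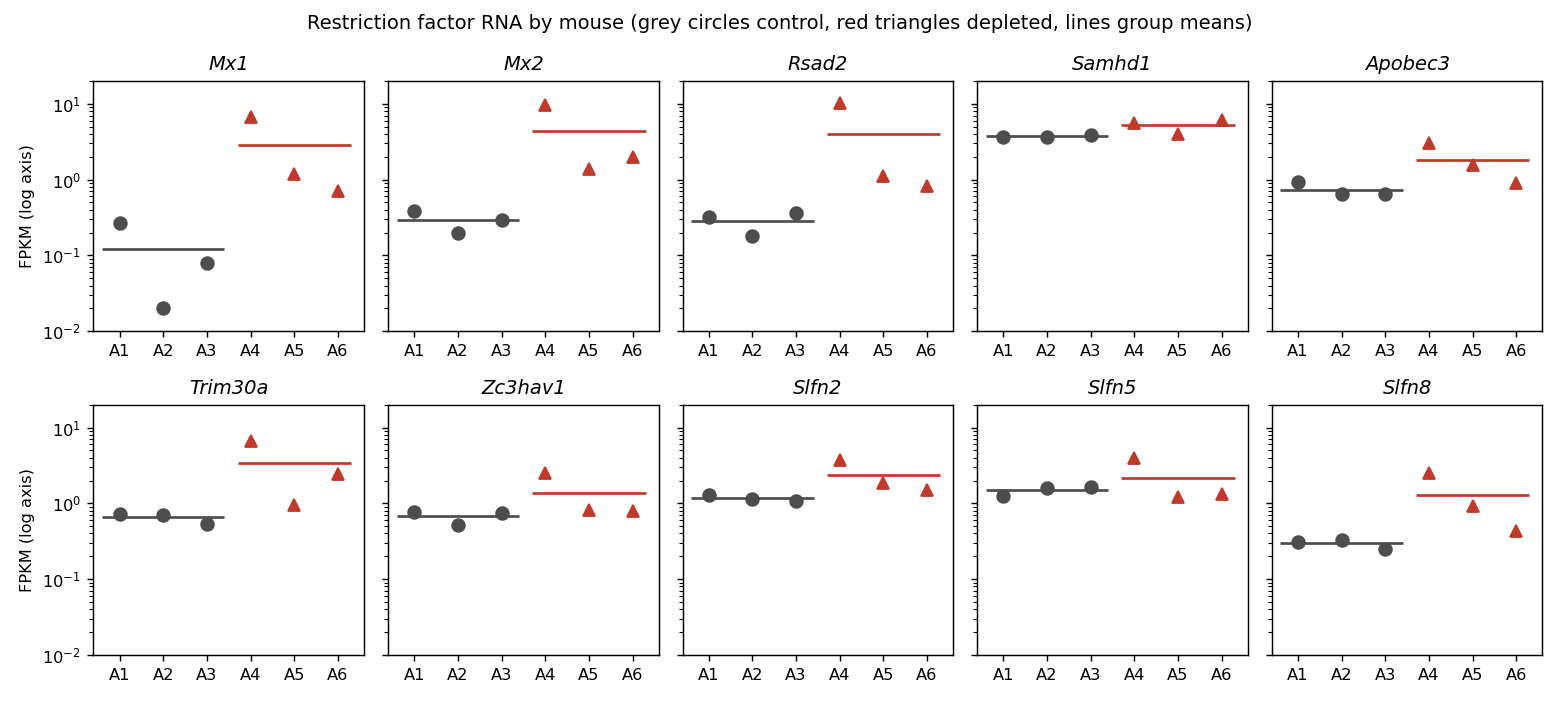
FPKM of each gene (log axis) in the 3 control mice (grey circles) and the 3 depleted mice (red triangles), with a line at each group's mean. A4 is the highest mouse in every panel but that of Samhd1, where A6 is at 6.04 FPKM, and the groups overlap in Apobec3 and Slfn5.

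The Mx genes encode dynamin-like GTPases that assemble around viral nucleocapsids. Mx1 was at 0.27, 0.02 and 0.08 FPKM in A1 to A3 and at 6.66, 1.20 and 0.70 FPKM in A4 to A6. Each depleted mouse was above each control mouse, and A4 was over 5 times as high as A5. The difference was 1.45 log2 units (standard error 0.49, adjusted p = 0.396 in limma) and 0.79 without A4. Mx2 was at 0.39, 0.20 and 0.29 FPKM in control mice, against 9.80, 1.39 and 2.01 FPKM in A4 to A6. Its difference was 1.72 (standard error 0.49, adjusted p = 0.378 in limma), against 1.05 without A4, and again the groups did not overlap. Which of the Mx genes had the larger difference depended on the pseudocount: with 0.1 in place of 1, Mx1 was at 3.26 and Mx2 at 3.03. The ratio of A6 to the control mean was 6.85 for Mx2 and 5.68 for Mx1, and that of A5 was 4.74 and 9.73. These RNAs need not yield working protein: C57BL/6 mice carry an Mx1 allele that lacks coding exons and an Mx2 allele with a shifted reading frame, and RefSeq lists both genes of this strain as transcribed pseudogenes. Both lie on chromosome 16, separated by Fam3b and a pseudogene, and they share 73 windows of 75 bases (1.71% of those of Mx1 and 2.01% of those of Mx2), so few reads could be split between them.

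Rsad2 encodes viperin, a radical SAM enzyme that turns CTP into a nucleotide that stops viral RNA synthesis. Its level was 0.32, 0.18 and 0.36 FPKM in A1 to A3 and 10.2, 1.11 and 0.82 FPKM in A4 to A6. The groups were apart, but A4 alone was 35.4 times the control mean, while A5 and A6 were 3.87 and 2.86 times that mean. The difference was 1.45 (standard error 0.60, adjusted p = 0.453 in limma), the largest standard error of the 10 genes, and it was 0.61 without A4. Cmpk2, which lies next to Rsad2 on chromosome 12 and encodes a nucleoside monophosphate kinase of mitochondria, was much more abundant in control mice, at 8.86, 8.46 and 8.0 FPKM. It reached 20.7, 9.63 and 11.8 FPKM in A4 to A6. Its difference of 0.60 (standard error 0.23, adjusted p = 0.433 in limma), against 0.31 without A4, was smaller than that of its neighbour, and its groups did not overlap.

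Samhd1 encodes a hydrolase that lowers the supply of dNTPs, on which reverse transcription depends. Its FPKM was 3.67, 3.63 and 3.93 in A1 to A3 and 5.54, 4.05 and 6.04 in A4 to A6. The control mice were close together, A5 lay just above them, and A6 rather than A4 was highest. The difference of 0.38 (standard error 0.15, adjusted p = 0.440 in limma) was 0.33 without A4, the smallest shift on leaving out this mouse among the 10 genes. Of 16 genes listed for dNTP metabolism, 15 were tested, and 7 were higher on average, against 48.0% of all genes tested. In limma 0 had an adjusted p under 0.1. At an unadjusted p under 0.05, 2 were higher and 0 lower, against 4.79% of all genes tested that were higher. Without A1 there were 1 higher and 0 lower, without A2 0 and 1, without A4 0 and 0, and without A6 1 and 2. The share of all genes tested that were higher was then 2.5%, 2.6%, 5.99% and 5.95%. The median of the list was -0.069, and -0.029 without A4, and it turned to 0.038 without A5 and to 0.040 without A3 and A4. The list ran from Nt5m, a mitochondrial nucleotidase, at -0.23 with A4 or without it, to Rrm2, the small subunit of ribonucleotide reductase in dividing cells, at 0.42. Rrm2 was at 0.99, 0.87 and 0.40 FPKM in control mice, against 1.42, 1.15 and 1.42 FPKM in depleted mice (adjusted p = 0.464 in limma), so that its groups were apart, and its difference was 0.40 without A4.

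Apobec3 encodes a cytidine deaminase that is packaged into retroviral particles and edits their DNA. It was at 0.92, 0.64 and 0.64 FPKM in A1 to A3 and at 3.07, 1.54 and 0.90 FPKM in A4 to A6. A6 lay under A1, so the groups overlapped. The difference was 0.64 (standard error 0.26, adjusted p = 0.453 in limma) and 0.35 without A4. Of its 75-base windows, 4.85% also occur in the neighbouring noncoding gene D730005E14Rik.

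Trim30a, a mouse TRIM protein and a brake on Toll-like receptor signaling, was at 0.73, 0.71 and 0.53 FPKM in control mice. It was at 6.67, 0.96 and 2.47 FPKM in A4 to A6. Here A6 stood well above A5, and each depleted mouse was above each control mouse. The difference was 1.18 (standard error 0.42, adjusted p = 0.409 in limma), against 0.66 without A4. Trim30d, a neighbour on chromosome 7 with which Trim30a shares 4.98% of its 75-base windows, was at 0.37, 0.34 and 0.33 FPKM in control mice, against 3.75, 0.74 and 0.75 FPKM in A4 to A6. Its difference was 0.86 (adjusted p = 0.464 in limma) and 0.37 without A4, and it too kept the groups apart. Trim30d had a control mean under the minimum and entered the test only through depleted mice, so its values lend no support.

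Zc3hav1 encodes ZAP, which binds CpG dinucleotides in foreign RNA and recruits its decay. It was at 0.77, 0.52 and 0.75 FPKM in A1 to A3 and at 2.49, 0.81 and 0.80 FPKM in A4 to A6. The groups did not overlap, but A5 and A6 exceeded A1 by no more than 0.04 FPKM, which is less than the spread of the control mice. The difference of 0.42 (standard error 0.26, adjusted p = 0.598 in limma) was 0.11 without A4. Among the cofactors of ZAP, the ubiquitin ligase gene Trim25 was at 1.32, 1.16 and 1.47 FPKM in control mice, against 4.61, 1.10 and 1.97 FPKM in A4 to A6, with overlapping groups and a difference of 0.50, against 0.11 without A4. For the nuclease genes, Khnyn had a difference of -0.14 (adjusted p = 0.736 in limma), against -0.18 without A4, and N4bp1 of 0.15 (adjusted p = 0.611 in limma), against 0.12 without A4, and the groups overlapped in both.

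The Schlafen genes lie in 1 cluster on chromosome 11. Slfn2, which is needed for quiescence of T cells, was at 1.30, 1.14 and 1.07 FPKM in A1 to A3 and at 3.68, 1.84 and 1.49 FPKM in A4 to A6. Its groups were apart, with a difference of 0.57 (standard error 0.23, adjusted p = 0.451 in limma), against 0.29 without A4. Slfn8, a long Schlafen with a helicase-like part, was at 0.31, 0.33 and 0.25 FPKM in control mice, against 2.54, 0.92 and 0.43 FPKM in A4 to A6. Those groups were apart too, although A6 was only 0.10 FPKM above A2, and the difference was 0.72 (standard error 0.30, adjusted p = 0.464 in limma), against 0.35 without A4. Without A4 the mean of Slfn8, like that of Mx1, was under the minimum, so these values are read from the genes that passed it in 6 mice. Slfn5, also a long Schlafen, went another way: it was at 1.24, 1.60 and 1.62 FPKM in control mice, against 3.93, 1.23 and 1.32 FPKM in A4 to A6. A5 was just under every control mouse, and the groups overlapped. Its difference of 0.25 (standard error 0.29, adjusted p = 0.790 in limma) turned to -0.12 without A4 and to -0.085 without A3 and A4. The remaining Schlafens of the list, Slfn1, Slfn3, Slfn4, Slfn9, Slfn10-ps and Slfn14, were under the minimum, and Slfn14 (named Slfn14-ps in the table) was listed at 0 in every mouse. Slfn9 was at 0.78 FPKM in A4 and at no more than 0.30 FPKM elsewhere. Slfn8 shares 6.99% of its 75-base windows with Slfn9 or Slfn10-ps, and 6.59% of those of Slfn5 occur in the antisense gene Slfn5os.

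**Figure D2:**
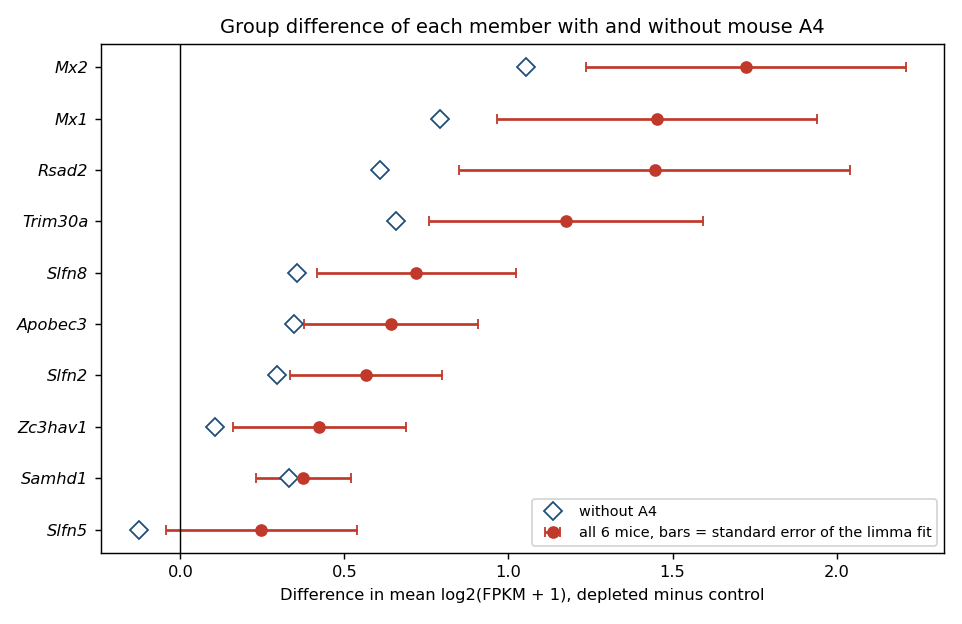
Difference in mean log2(FPKM + 1), depleted minus control, for each gene with all 6 mice (red circles, bars of 1 standard error from limma) and without A4 (open diamonds). Mx2 is highest at 1.72, and 1.05 without A4; Slfn5 is the gene whose difference changes sign, from 0.25 to -0.12.

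The 3 depleted mice held different levels of the 10 genes. Relative to the control mean of log2(FPKM + 1), A4 had a median of 1.34, A5 of 0.47 and A6 of 0.35. A5 was above A6 in 6 genes (Mx1, Rsad2, Apobec3, Zc3hav1, Slfn2 and Slfn8) and A6 above A5 in 4 (Mx2, Samhd1, Trim30a and Slfn5). The summed FPKM of the 10 genes was 9.92, 8.97 and 9.52 in A1 to A3 and 54.5, 15.1 and 17.0 in A4 to A6. The ratio of group means was 23.1 for Mx1, 15.0 for Mx2 and 14.1 for Rsad2, against 5.13 for Trim30a, 4.37 for Slfn8, whose control level was like those of Mx2 and Rsad2, 1.45 for Slfn5 and 1.39 for Samhd1. Without A4 the ratios were 7.70 for Mx1, 5.80 for Mx2, 3.37 for Rsad2, 2.61 for Trim30a, 2.28 for Slfn8, 0.858 for Slfn5 and 1.35 for Samhd1.

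Among the upstream factors, the receptor genes were alike in both groups, and Stat2 and Irf9 were highest in A4. For the receptor, Ifnar1 was at 8.03 ± 0.653 FPKM in the control group and 8.01 ± 0.569 FPKM in the depleted group (SD, n = 3), and Ifnar2 at 10.4 ± 0.796 and 11.0 ± 1.70 FPKM (SD, n = 3), differences within the spread between mice. On the log2 scale they were -0.0027 and 0.068, and -0.021 and -0.046 without A4. Irf9 was at 5.56, 4.56 and 4.90 FPKM in A1 to A3 and at 24.9, 7.17 and 7.88 FPKM in A4 to A6. Groups were apart in Stat2, Irf9 and Irf7, with differences of 0.75, 1.04 and 2.12 (adjusted p = 0.396, 0.418 and 0.378 in limma). Without A4 these were 0.42, 0.51 and 1.30. Of 11 genes listed from the receptor to ISGF3 and its regulators, 10 were tested, and 6 were higher on average, against 48.0% of all genes tested. In limma 0 had an adjusted p under 0.1. At an unadjusted p under 0.05, 4 were higher and 0 lower, against 4.79% of all genes tested that were higher. The 4 became 3 without A1 and 2 without A2 or A3, while there were 4 higher and 1 lower without A4 (Irf1) and without A6 (Irf3). The share of all genes tested that were higher was 2.5% without A1, 2.6% without A2, 3.06% without A3, 5.99% without A4 and 5.95% without A6. The median of the list was 0.062, and 0.024 without A4, and the list ran from Irf3, a factor upstream of interferon production, at -0.37 (-0.18 without A4), to Irf7 at 2.12. Without A4 the low end was Irf1, at -0.57 against -0.15 with A4: it was at 2.02, 2.56 and 3.56 FPKM in control mice, and A5 and A6, at 1.45 and 1.47 FPKM, lay under them and A4, at 4.95 FPKM, over them.

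**Figure D3:**
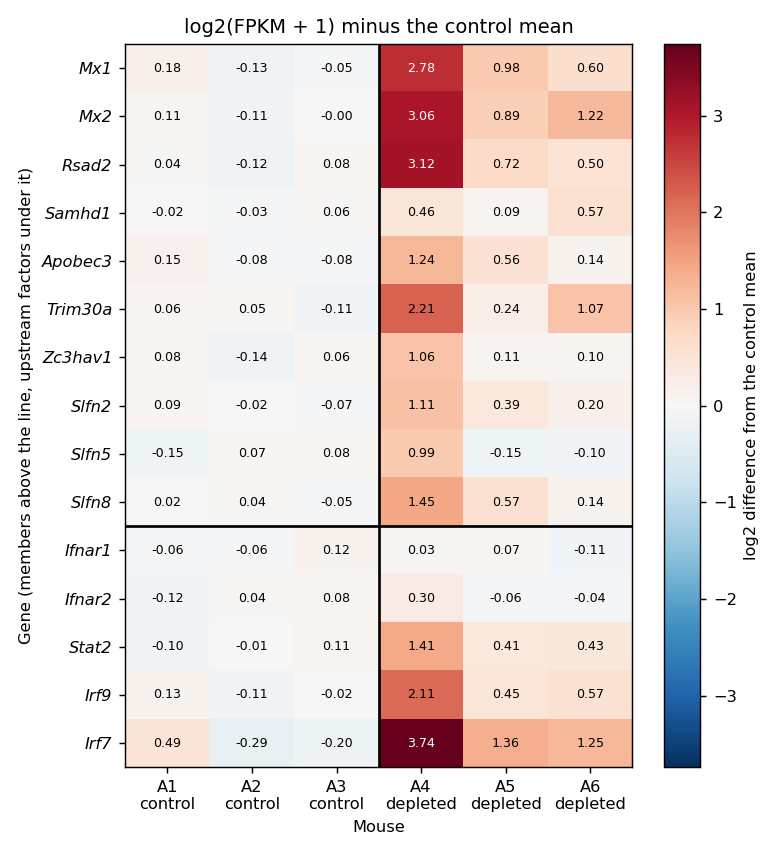
log2(FPKM + 1) of each mouse minus the mean of the 3 control mice, for the 10 genes (over the line) and 5 upstream factors (under it), with red for higher and blue for lower values. A4 holds the deepest red, up to 3.12 for Rsad2 and 3.74 for Irf7, while Ifnar1 stays between -0.11 and 0.12 in every mouse.

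Other genes of the same response and other restriction factors give the setting. Of 38 other interferon-induced genes, all 38 were tested, and 37 were higher on average (36 without A4), against 48.0% of all genes tested. In limma 0 had an adjusted p under 0.1. At an unadjusted p under 0.05, 20 were higher and 0 lower, against 4.79% of all genes tested that were higher. The 20 became 18 without A1, 14 without A2 and 16 without A3, against 2.5%, 2.6% and 3.06% of all genes tested. There were 20 higher and 1 lower (Adar) without A4, 28 higher without A5 and 30 higher without A6, against 5.99%, 6.92% and 5.95% higher. In 26 the depleted mice were all above the control mice, against 8.21% of all genes tested. With a mouse left out and the minimum applied again, 1 had an adjusted p under 0.1 without A5 (Ifi27l1), 3 of 35 tested without A4 (Ifit3, Ifi27l1 and Ifi27l2a), and 0 without any other mouse, whereas without A4 and with all 38 kept it was 0. Oas1a, Oas2, Oasl1, Ifi44 and Parp14 had control means under the minimum and entered only through depleted mice. Those counts therefore lend no support as they stand; among the other 33 genes, 18 were higher at an unadjusted p under 0.05 and 22 had groups apart. The median was 0.91 over these 33 and 0.95 over all 38, the latter 0.42 without A4, and the 38 ran from Adar, an RNA editing enzyme, at -0.12 (-0.18 without A4) to Ifit3 at 2.30 (1.53 without A4). Isg15, a ubiquitin-like modifier, was at 4.02, 3.54 and 2.43 FPKM in control mice, against 63.3, 8.12 and 7.26 FPKM in A4 to A6, a difference of 1.98, against 1.02 without A4. Of 39 other restriction factors and relatives, 37 were in the table and 26 were tested. Of these 26, 19 were higher on average, against 48.0% of all genes tested, and 0 had an adjusted p under 0.1 in limma. At an unadjusted p under 0.05, 6 were higher and 0 lower, against 4.79% of all genes tested that were higher. The 6 became 3 without A1, 1 without A2 and 3 without A4, against 2.5%, 2.6% and 5.99% of all genes tested. Among the 26, 1 gene, Trim30d, had a control mean under the minimum and entered only through depleted mice. It is among the 6 and among the 3 without A4, so those counts lend no support as they stand. Of the other 25, 18 were higher on average and 5 were higher at an unadjusted p under 0.05, with a median of 0.12. The median over all 26 was 0.13, and 0.071 without A4, beside -0.0085 over all genes tested. At its ends were Adarb1, an editing enzyme of neuronal transcripts, at -0.20 (-0.054 without A4) and Bst2 at 1.74. Bst2 encodes tetherin, which holds budding virions at the cell surface, and was at 4.85, 2.35 and 3.89 FPKM in control mice, against 32.5, 8.02 and 10.7 FPKM in A4 to A6, with a difference of 1.17 without A4. The exonuclease gene Isg20 had overlapping groups, with 1.52 FPKM in A3 and 0.94 FPKM in A6, and a difference of 0.91 (adjusted p = 0.529 in limma), against 0.33 without A4. Ch25h, a cholesterol hydroxylase gene, was under the minimum, at 0.80 FPKM or less in each mouse.

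**Figure D4:**
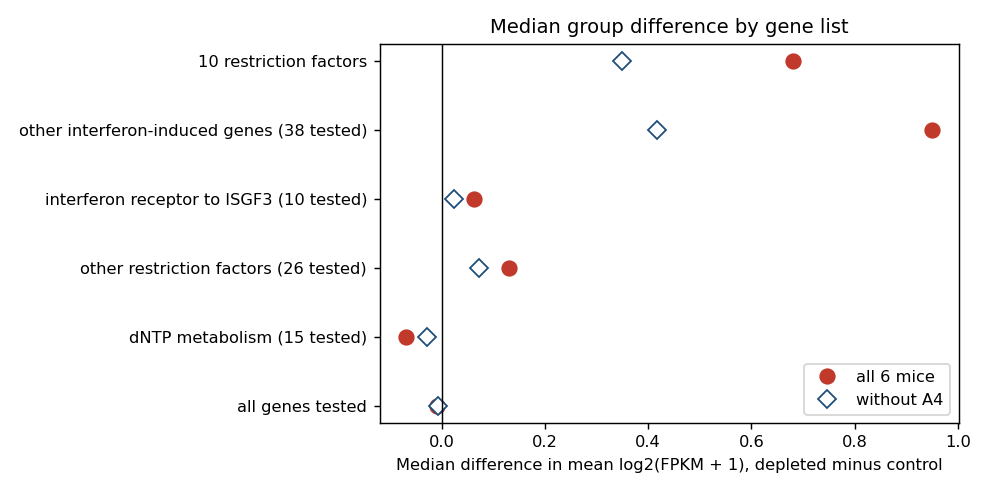
Median difference in mean log2(FPKM + 1), depleted minus control, for the 10 restriction factors, 4 other lists and all genes tested, with all 6 mice (red circles) and without A4 (open diamonds). The 10 genes are at 0.68 and 0.35, the other interferon-induced genes at 0.95 and 0.42, and dNTP metabolism at -0.069 and -0.029.

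The 10 tested genes outside the set whose log2 values over the 6 mice followed the mean profile of the 10 genes most closely were Irf9, Hjurp, Iigp1, Trim17, Trim30d, Oasl2, Usp18, Uso1, I830012O16Rik and Rasgrf1. Pearson's r ran from 0.996 for Rasgrf1 to 0.998 for Irf9, over 6 mice among which A4 is the extreme value of each of these genes. Hjurp and Uso1 show how little a high r says about size: the control values of Hjurp lay from 2.51 to 2.53 FPKM, and it was at 4.34, 2.90 and 2.85 FPKM in A4 to A6, while Uso1 was at 24.5, 24.6 and 24.7 FPKM in the control group and at 29.0, 25.6 and 25.7 FPKM in the depleted group. Trim17, a TRIM gene expressed in neurons, was at 1.69, 1.65 and 1.71 FPKM in A1 to A3 and at 20.5, 3.16 and 3.16 FPKM in A4 to A6. Among the 10 restriction factors, r with the mean profile of the other 9 was lowest for Samhd1 at 0.637 and for Slfn5 at 0.841, and highest for Rsad2 at 0.992.

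Because several of these genes were high in the same mice, their promoters were searched for the core of the element that ISGF3 and IRF factors bind, GAAA followed by any 2 bases and GAAA again, on both strands. RefSeq promoter sequences of GRCm38.p6, 250 bases before to 50 bases after the start, were matched for 8 of the 10 genes, and Mx1 and Mx2 had no entry. The core was found for 5 of the 8: Rsad2, Apobec3, Trim30a, Slfn5 and Slfn8. Of all 27025 genes with such a sequence, 3.99% held it, and of all 32851 sequences, 3.44%. It was not found in those of Samhd1, Zc3hav1 and Slfn2. The stretches are shown because they put the shared core beside the values above, 5′ to 3′ on the strand of the gene, with the core in capitals. In 4 of the 5 it lies on the other strand and so reads TTTC, 2 bases and TTTC.
Rsad2: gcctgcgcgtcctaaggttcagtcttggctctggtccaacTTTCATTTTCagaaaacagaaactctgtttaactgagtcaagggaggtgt
Trim30a: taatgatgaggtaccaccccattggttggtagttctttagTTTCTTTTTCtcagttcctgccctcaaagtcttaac
Slfn8: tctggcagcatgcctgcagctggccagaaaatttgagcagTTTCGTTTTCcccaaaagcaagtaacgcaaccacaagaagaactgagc
Slfn5: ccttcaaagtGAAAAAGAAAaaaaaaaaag
Apobec3: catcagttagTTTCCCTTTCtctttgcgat
The Rsad2 stretch is chr12:26456523-26456612 (minus strand), with the core from 120 to 111 bases before the start. That of Trim30a is chr7:104465194-104465269 (minus strand), with the core from 36 to 27 bases before 1 of its 2 listed starts and just after the other, and that of Slfn8 is chr11:83020811-83020898 (minus strand), with the core from 48 to 39 bases before 1 of 2 starts and from 136 to 127 bases before the other. No exon of the GENCODE M21 annotation overlaps these 3. The Slfn5 stretch is chr11:82951937-82951966 (plus strand), from a purine-rich run 155 to 146 bases before the start, and also lies outside annotated exons. The Apobec3 stretch is chr15:79892258-79892287 (plus strand), with the core 140 to 131 bases before 1 of 2 starts, the other having none in its window, inside exons of longer Apobec3 transcripts and of D730005E14Rik. The genes with the core span differences from 0.25 for Slfn5 to 1.45 for Rsad2, and those without it from 0.38 for Samhd1 to 0.57 for Slfn2. A match is a description of letters and not evidence that a factor binds there.

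Markers of cell types were read in the same libraries, and their part in the values above was not tested. All 10 microglia markers were tested and 7 were higher on average, against 48.0% of all genes tested, with a median of 0.029. Without A4 only 3 were higher, with a median of -0.031, whereas 8 were higher without A1, with a median of 0.120, and without A5, with a median of 0.071. For 0 of the 10 was the adjusted p under 0.1 in limma, which became 1 without A5 (Aif1). As a background for all the marker lists, 1515 of the 14385 genes tested had an unadjusted p under 0.05, 689 of them (4.79% of those tested) higher in depleted mice. At that p, 1 microglia marker was higher (Aif1) and 2 were lower, P2ry12 at -0.35 and Fcrls. The 2 lower became 1 (Fcrls) without A2, and the 1 higher became 0 without A3 and A4. P2ry12 and Fcrls were lower with groups apart, and Aif1 and Siglech were higher with groups apart, all with and without A4. All depleted mice were above all control mice in 8.21% of all genes tested, and in 14.5% without A4. The share with all depleted mice under all control mice was not taken, so the lower separations lend no support. Siglech was at 5.05, 4.02 and 4.97 FPKM in control mice, against 5.38, 6.05 and 5.61 FPKM in A4 to A6, a difference of 0.24 (0.27 without A4). The summed FPKM of the 10 markers was 89.4, 73.4 and 79.3 in A1 to A3 and 88.7, 68.7 and 82.7 in A4 to A6, led by Csf1r. The list ran from Fcrls at -0.90, and -0.70 without A4, to Aif1, which encodes IBA1, at 0.74, and 0.57 without A4. Aif1 was at 14.3, 7.34 and 12.8 FPKM in A4 to A6 and at no more than 6.49 FPKM in control mice. The defining markers P2ry12, Tmem119, Cx3cr1 and Csf1r were present in every mouse. The 6 monocyte markers summed to 12.7, 11.2 and 17.0 FPKM in control mice and to 22.9, 18.6 and 15.2 FPKM in A4 to A6, mostly from Lyz2. Of these 6, 3 were tested, 0 had an adjusted p under 0.1 in limma, and Lyz2 and Ly6c2 were higher at an unadjusted p under 0.05, with overlapping groups; these 2 became 0 without A1 or A4 and 1 without any other mouse. Ly6c2 had a control mean under the minimum and entered only through depleted mice, so its p lends no support. It was at 0.18, 0.46 and 0.15 FPKM in control mice, against 1.73, 0.39 and 0.88 FPKM in A4 to A6, Plac8 was at 2.28 FPKM in A4 and at no more than 0.49 FPKM elsewhere, and Ccr2 was at no more than 0.24 FPKM. For 5 markers of border macrophages, led by Pf4 in control mice, the sums were 4.73, 6.50 and 4.88 FPKM there and 4.59, 5.56 and 3.14 FPKM in A4 to A6. Pf4 was at 1.38, 3.23 and 2.03 FPKM in control mice, against 0.12, 1.90 and 0.60 FPKM in A4 to A6, with overlapping groups. It was lower at an unadjusted p under 0.05 in limma, at -0.85 (-0.54 without A4), but not without A2, A3, A4 or A6. Of the 4 tested, 2 were higher on average, and 0 had an adjusted p under 0.1 in limma.

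Lymphocyte and neutrophil RNA was scarce. The 8 markers of T and NK cells summed to between 2.16 and 3.83 FPKM in each mouse, most of it Cd4, and Gzmb was listed at 0 in all 6. Cd3d, a chain of the T cell receptor complex, was at 1.08 FPKM in A4 and at no more than 0.13 FPKM elsewhere. The 3 B cell markers, led by Cd79a, summed to 1.25 FPKM in A4, to 0.96 FPKM in A1 and to no more than 0.23 FPKM elsewhere, with Ms4a1 listed at 0 in all 6 mice. The neutrophil markers in the table, led by S100a8, summed to 4.29, 2.61 and 2.77 FPKM in control mice and to 1.04, 6.12 and 0.63 FPKM in A4 to A6.

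Among resident brain cells, the 5 astrocyte markers summed to 376.2, 311.6 and 347.6 FPKM in control mice and to 542.0, 365.7 and 362.2 FPKM in A4 to A6. Slc1a3 was the most abundant on average, but the excess in A4 was in Gfap, a filament protein of reactive astrocytes. Gfap was at 88.3, 64.5 and 84.2 FPKM in control mice, against 300.3, 108.5 and 120.1 FPKM in A4 to A6, so that its groups were apart. Its difference was 1.00 (adjusted p = 0.396 in limma), against 0.54 without A4. The other 4 were lower on average in depleted mice. Of these, Gja1 had groups apart, with a difference of -0.19 (adjusted p = 0.475 in limma) with A4 or without it. Without A2, Aldh1l1 and Gja1 were lower at an unadjusted p under 0.05 in limma, and 0 astrocyte markers were higher. The 5 oligodendrocyte markers, led by Mbp, summed to between 2723 and 2966 FPKM in control and between 2391 and 2459 FPKM in depleted mice. Of these 5, 0 were higher on average, against 48.0% of all genes tested, and Mbp, Mobp and Mag had groups apart, with and without A4. The share of all genes tested with every depleted mouse under every control mouse was not taken, so these separations lend no support. In limma 0 of the 5 had an adjusted p under 0.1, and 2 (Mbp and Mag) were lower at an unadjusted p under 0.05. The 2 became 1 (Mag) without A1 or A5, 3 without A4 and 4 without A6. The 5 neuronal markers, led by Snap25, summed to between 1892 and 2213 FPKM in the 6 mice. The 5 endothelial markers, led by Ly6c1, summed to between 35.9 FPKM in A1 and 46.6 FPKM in A4. Of these, 4 were higher on average, and Cldn5 had groups apart, with a difference of 0.31 (adjusted p = 0.394 in limma), against 0.28 without A4. The 5 choroid plexus markers, led by Ttr, summed to 182.1, 323.7 and 167.0 FPKM in control mice and to 70.7, 45.2 and 64.8 FPKM in A4 to A6. Of these 5, 0 had an adjusted p under 0.1 in limma, and 1 (Ttr) had it without A4 when the minimum was applied again. At an unadjusted p under 0.05, 3 were lower. The 3 became 2 without A1 or A6, 1 without A2 or A5, and 4 without A4 or without A3 and A4. Ttr had a difference of -1.91 (adjusted p = 0.151 in limma), against -2.03 without A4. The 5 markers of red blood cells summed to 14.4 FPKM in A4 and to between 57.6 and 105.0 FPKM in the other mice. Hba-a1 led on average, but in A5 it was at 8.88 FPKM and Hba-a2 at 65.0. Hba-a2 was also at 29.98 FPKM in A6 and at 0 in the other 4 mice, with an adjusted p of 0.406 in limma that was under 0.1 without A4. Its control mean was under the minimum and it entered only through depleted mice, so its p lends no support. The adjusted p of Hba-a1 was under 0.1 in limma without A6.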

How the data were processed

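The authors prepared poly(A)-selected libraries of cortical RNA and sequenced 75 bp paired-end reads. They aligned them with TopHat, quantified known transcripts with RSEM and applied TMM normalization. The submitters' processing notes name mm9, TopHat, RSEM and DESeq, without versions. The values the authors deposited are FPKM for 23366 genes in 6 mice, rounded to 2 decimals. Raw counts were not used here. The authors' own test, DESeq on raw counts at an adjusted p under 0.1, was therefore not repeated, and the numbers of genes called here are not those of the study.

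Values were taken to log2(FPKM + 1). Genes whose mean reached 0.5 FPKM, 14385 in number, were tested with limma 3.58.1 in R 4.3.3 (lmFit, eBayes with trend, two-sided), with Benjamini-Hochberg adjustment over all of them and a threshold of 0.1, with no covariate. The 3 mice against 3 allow no exact two-sided permutation p below 0.1. The labels give no litter or batch.

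The members and gene lists were chosen with earlier results of these data known, and a few listed genes are not reported here. Named genes are all 10 members, the genes with the largest and smallest difference of each list, known partners and upstream factors, and the 10 genes most like the members' mean profile, for which each member was scaled to an SD of 1. Xist, Slfn9 and other Schlafens, D730005E14Rik, Slfn5os, Irf1, Cd3d, Ccr2, Ly6c2, Plac8, Hba-a2 and further marker genes, with list genes called only with a mouse left out or under the minimum in control mice, were named after their values were seen.

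Depth was estimated from 1813 genes with 1 annotated transcript of 400 to 1500 bases. Shared windows of 75 bases came from GENCODE M21 transcripts, and promoters and gene order from RefSeq (GRCm38.p6). The limma step and the depth estimate were tested on simulated data. The comparison was repeated without a filter, with a minimum of 1 FPKM, a pseudocount of 0.1 or a threshold of 0.05, after TPM, median-of-ratios or quantile scaling, with array weights, with eBayes run robustly or without its trend, and leaving out each mouse in turn, or both A3 and A4. Leaving out A4 while keeping the genes that passed the filter in 6 mice was added after seeing the data, and values given in the report without A4 are from it unless the minimum is said to be applied again. Other steps used matplotlib 3.10.9, scipy 1.17.1, pandas 2.3.3 and numpy 2.4.6 in Python 3.11.15.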

Additional observations from a re-analysis of the deposited data

How the results depend on the processing

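The count of members with an adjusted p under 0.1 in limma was 0 under every alternative run, and the lowest adjusted p of a member was 0.121, for Mx2 without A4 (0.124 with the genes of the 6-mouse filter), in a range up to 0.892 for that gene. The number of all genes called was 4, and it was 2 with eBayes without trend, 20 with array weights, 7 without A3 and A4, and from 2 (without A1) to 29 (without A5) with 1 mouse left out, with 22 without A4 (filter applied again) and 8 without A6. The median difference of the members was 1.29 with a pseudocount of 0.1, a scale that weighs low values more, against 0.68. It was 0.98 after TPM scaling, and with 1 mouse left out it ran from 0.34 without A4 (8 members tested) to 0.95 without A6. The members whose groups did not overlap numbered from 6 without A4 (of 8 tested) to 9, the latter without A1 and without A6. The share of all genes tested was not taken without A1 or A6. That share was 8.21% with all mice and 14.5% without A4, so the 9 lends no support. Slfn5 turned to -0.12 without A4, with either filter, and to -0.085 without A3 and A4 (the cause was not tested), and with 1 mouse left out it ran from -0.12 to 0.45, the latter without A5. All other members stayed higher in depleted mice under the alternatives in which they were tested. With the filter applied again, Mx1 and Slfn8 were not tested without A4, and Slfn8 was not tested without A3 and A4 or with a minimum of 1 FPKM. With A4 left out and the genes of the 6-mouse filter kept, 4 genes were called, the members' median was 0.35 and 8 had groups that did not overlap. The 8 include Mx1, Mx2, Rsad2 and Slfn8, which entered only through depleted mice, so this count and median lend no support.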
